A study of Mus musculus with 4 samples.

Results

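The genes described here are 10 cyclins, kinases and regulators that carry germ cells through the meiotic divisions, out of 22552 gene symbols measured. They were taken by name, namely Ccna1, Ccnb1, Ccnb2, Cdk1, Cdc20, Cdc25c, Aurka, Aurkc, Plk1 and Pttg1. All 10 were listed once in every table and all 10 passed the filter on low values, a mean of at least 1 FPKM over the 4 libraries. FPKM is a level corrected for the length of the transcript and for the number of fragments mapped in a library, so it can be compared between genes.

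The RNA came from haploid cells, labelled round spermatids, that were sorted on Hoechst fluorescence out of the testes of male mice at 23 days after birth. There were 4 libraries, 2 from Sox30 knockout mice and 2 from wildtype mice. Sox30 encodes a transcription factor of the SOX family. The background strain was given as DBA/C58/ICR and DBA/C60/ICR for knockout libraries 1 and 2 and as DBA/C57/ICR and DBA/C59/ICR for wildtype libraries 1 and 2. The number in that label goes up by 1 with each sample in the record, so it may be an entry error, and it is not taken to show that the libraries differed in strain. The labels used here give neither the deleted part of Sox30 nor the number of animals behind a library. The p-values thus rest on the spread between libraries alone, which may be technical.

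Entry into division is driven by the kinase Cdk1 bound to a cyclin. The phosphatase Cdc25c removes inhibitory phosphates from Cdk1, and the Polo and Aurora kinases act on centrosomes, spindle and kinetochores. Division ends when Cdc20 activates the anaphase-promoting complex, a ubiquitin ligase that marks B-type cyclins and the securin Pttg1 for destruction and so frees separase to cut cohesin. Round spermatids have finished both meiotic divisions and do not divide again. The comparison asks whether the transcripts of this machinery, as carry-over from the divisions, stood at different levels in cells lacking Sox30.

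The libraries had relative depths of 1.24 and 1.16 in the knockout and 1 and 1.40 in the wildtype, inferred from the spacing of low FPKM, and their absolute depth is unknown. More symbols were listed at 0 in the knockout libraries, 9329 and 11112, than in the wildtype libraries, 6414 and 5915. Sox30 stood at 1.46 and 3.16 FPKM in the knockout libraries, against 11.4 and 16.2 FPKM in the wildtype libraries, a log2 change of -2.19 that passed the test (limma adjusted p = 0.0219, SE 0.43). The cell type label was set against marker genes. All 9 round spermatid markers, among them Acrv1 and Spaca1, fell, with a summed level of 168 and 161 FPKM in the knockout libraries against 2716 and 2338 FPKM in the wildtype libraries. Elongating spermatid markers, among them Prm1 and Tnp1, summed to 51.1 and 35.4 FPKM in the knockout and 12155 and 7089 FPKM in the wildtype, and 6 of the 7 fell. Markers of meiotic spermatocytes were present in all 4 libraries. Their summed level over 12 genes was 921 and 715 FPKM in the knockout libraries and 1315 and 1125 FPKM in the wildtype libraries, and 0 of the 12 were listed at 0 in both libraries of a genotype. Of 11 spermatocyte markers tested, 2 fell, Smc1b and Syce2, and 0 rose, where 13.4% of all genes tested fell and 1.95% rose. For 9 of the 11, or 81.8%, both knockout values lay below both wildtype values, against 38.6% of all genes. Markers of other cells had lower sums in both knockout libraries than in both wildtype libraries, though single genes such as Nanos3 and Tagln did not follow. The 6 Leydig cell markers summed to 0.0674 FPKM and close to 0 in knockout libraries 1 and 2, against 60.2 and 36.8 FPKM in the wildtype libraries. The 6 blood and macrophage markers summed to 8.99 and 0.283 FPKM against 242 and 132 FPKM. The 3 peritubular cell markers summed to 1.34 and 2.23 FPKM in the knockout and 8.56 and 7.07 FPKM in the wildtype. The 8 spermatogonia markers summed to 7.11 and 5.69 FPKM in the knockout and 33.5 and 37.1 FPKM in the wildtype. Sertoli markers, of which 7 were in the tables, summed to 63.5 and 22.1 FPKM in the knockout and 83.4 and 222 FPKM in the wildtype, nearly all of it Clu.

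The division genes were detected in all 4 libraries, and none of the 10 passed the test of knockout against wildtype. At a threshold of 0.05 on the limma adjusted p, 0 fell and 0 rose, where 13.4% of the 9124 genes tested fell, 1.95% rose and 15.3% passed in either direction. At an unadjusted limma p under 0.05 the count was 2 of 10, Cdc20 and Pttg1, both higher in the knockout, where 31.3% of all genes tested reached that level. Both knockout values lay above both wildtype values for 3 members, Ccna1, Cdc20 and Pttg1, against 22.2% of all genes, and lay below for 0 members, against 38.6% of all genes. The median log2 change of the 10 was 0.36 and that of all genes tested was -0.23, with 8 of 10 members and 40.2% of all genes above 0. Among genes with a mean of at least 5 FPKM, a level that all 10 members reached, the median of all genes was -0.098. All changes are on the log2(FPKM + 1) scale, knockout minus wildtype. A level per library cannot tell fewer cells of a type from less RNA per cell. The part of the spermatocyte markers in the members' values was not tested.

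**Figure D1:**
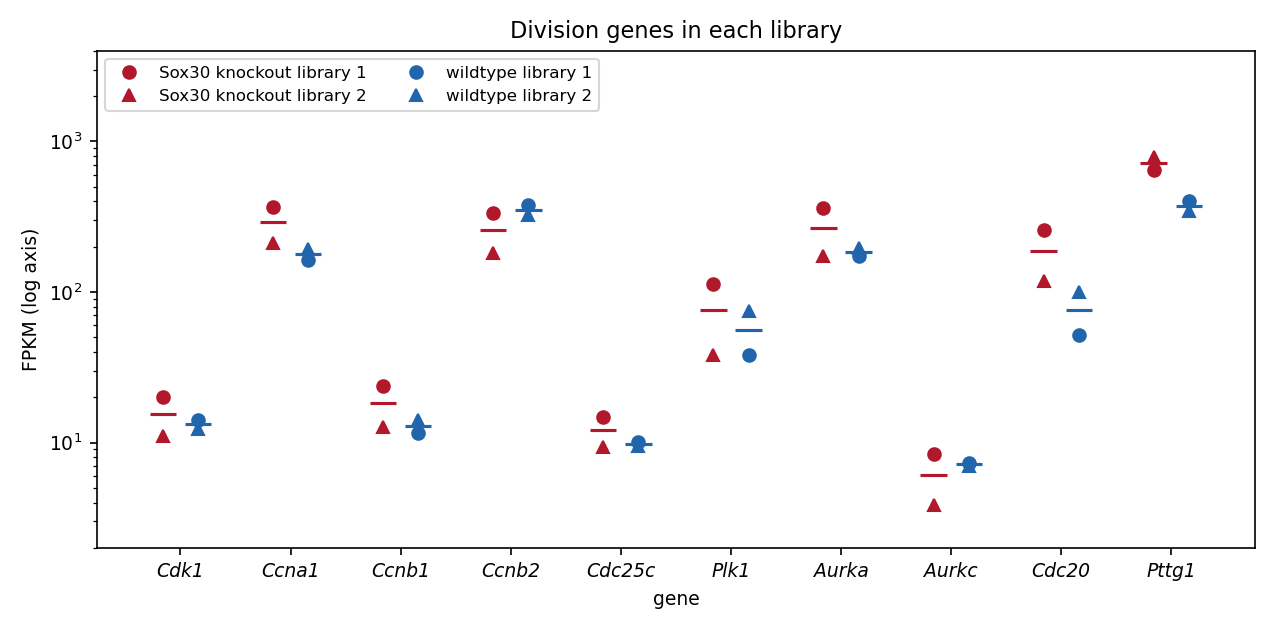
FPKM of the 10 division genes on a log axis in each library, with Sox30 knockout libraries in red at the left of each gene and wildtype libraries in blue at the right. Circles are library 1, triangles library 2 and bars the means of 2 libraries; the red points lie wholly above the blue ones for Ccna1, Cdc20 and Pttg1 and overlap or straddle them for the others.

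Summed over the 10 genes the level was 2153 and 1548 FPKM in the knockout libraries and 1251 and 1275 FPKM in the wildtype libraries. Knockout library 1 held the highest sum and neither knockout library fell within the wildtype range. As a share of all FPKM in the library, which differed in total, the sum was 0.360% and 0.230% in the knockout and 0.220% and 0.255% in the wildtype, so the shares overlapped. In both genotypes the levels covered a wide range, and Pttg1 had the highest mean and Aurkc the lowest. The order in the knockout was Pttg1, Ccna1, Aurka, Ccnb2, Cdc20, Plk1, Ccnb1, Cdk1, Cdc25c and Aurkc. Neighbours from Ccna1 to Cdc20 in that order, and from Ccnb1 to Cdc25c, overlapped in their ranges. In the wildtype the order was Pttg1, Ccnb2, Aurka, Ccna1, Cdc20, Plk1, Cdk1, Ccnb1, Cdc25c and Aurkc. There the pairs Pttg1 and Ccnb2, Aurka and Ccna1, Cdc20 and Plk1, and Cdk1 and Ccnb1 overlapped. Ccnb2 thus stood above Aurka and Ccna1 in the wildtype order and below them in the knockout order.

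Cdk1, on chromosome 10, the catalytic kinase of entry into division, stood at 20.0 and 11.1 FPKM in the knockout libraries, against 14.2 and 12.2 FPKM in the wildtype libraries. The knockout values straddled the wildtype ones. Its log2 change was 0.17 (SE 0.39, 95% interval -0.80 to 1.14, limma adjusted p = 0.803). Cdk1 was thus far less abundant per length than 2 of its cyclin partners, Ccna1 and Ccnb2.

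Ccna1, on chromosome 3, encodes cyclin A1, the male germ cell A-type cyclin without which mouse spermatocytes do not divide. It stood at 369 and 210 FPKM in the knockout and 163 and 192 FPKM in the wildtype, with both knockout values above the wildtype range. The log2 change was 0.65 (SE 0.36, 95% interval -0.23 to 1.53, limma adjusted p = 0.267). An antisense gene, 4931419H13Rik, overlaps Ccna1 on the opposite strand and shares 190 bases with it at 99.5% identity. The sources used here do not say that counting used strand, so reads of the pair cannot be told apart where they overlap. That gene stood at 34.9 and 42.8 FPKM in the knockout and 13.9 and 13.1 FPKM in the wildtype, and rose, with a log2 change of 1.45 (limma adjusted p = 0.0295). Its level was below that of Ccna1 in every library.

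The B-type cyclins differed in level from each other. Ccnb2, on chromosome 9, whose loss mice tolerate, stood at 334 and 180 FPKM in the knockout and 379 and 325 FPKM in the wildtype. Knockout library 1 lay inside the wildtype range and knockout library 2 below it. Its log2 change of -0.52 was the most negative of the 10 (SE 0.37, 95% interval -1.42 to 0.39, limma adjusted p = 0.385). Ccnb1, on chromosome 13, without which mouse embryos die, stood at 23.9 and 12.7 FPKM in the knockout and 11.6 and 14.1 FPKM in the wildtype. Its groups overlapped, with a log2 change of 0.42 (SE 0.41, 95% interval -0.58 to 1.42, limma adjusted p = 0.519). Among annotated transcripts 4 pseudogenes matched Ccnb1 at 95% identity or more over at least 100 bases. The closest was Ccnb1-ps, 99.2% identical over 1287 bases. The level of Ccnb1 is therefore uncertain, since reads could be split among these copies. In each library Ccnb2 was the more abundant of the pair, by 14.0 and 14.2 times in the knockout and 32.8 and 23.1 times in the wildtype.

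Cdc25c, on chromosome 18, the phosphatase that activates Cdk1, stood at 14.7 and 9.34 FPKM in the knockout and 10.1 and 9.55 FPKM in the wildtype. The wildtype libraries were close together and the knockout libraries lay on either side of them. The log2 change was 0.24 (SE 0.37, 95% interval -0.67 to 1.14, limma adjusted p = 0.700).

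Of the Polo and Aurora kinases, Plk1, on chromosome 7, which acts on centrosomes and kinetochores, varied most among libraries. It stood at 113 and 38.4 FPKM in the knockout and 38.4 and 74.3 FPKM in the wildtype. Knockout library 1 was high, knockout library 2 equalled wildtype library 1 to 3 digits, and the interval of the log2 change of 0.30 was wide (SE 0.59, 95% interval -1.16 to 1.76, limma adjusted p = 0.763). Aurka, on chromosome 2, the Aurora kinase of centrosomes and spindle poles, stood at 361 and 172 FPKM in the knockout and 174 and 197 FPKM in the wildtype. Knockout library 2 was the lowest of the 4 and knockout library 1 the highest. The log2 change was 0.43 (SE 0.41, 95% interval -0.57 to 1.43, limma adjusted p = 0.513). Aurkc, on chromosome 7, the Aurora kinase found mainly in germ cells, stood at 8.37 and 3.87 FPKM in the knockout and 7.36 and 6.95 FPKM in the wildtype, with overlapping groups (log2 change -0.27, SE 0.44, 95% interval -1.34 to 0.80, limma adjusted p = 0.707). Its level is uncertain too, because 5 pseudogenes matched it on the same criteria, the closest being Gm12463 at 99.2% identity over 849 bases. Aurka was above Aurkc in each library, by 43.2 and 44.5 times in the knockout and 23.7 and 28.3 times in the wildtype.

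The genes that act at the exit from division had the largest differences of the 10. Cdc20, on chromosome 4, the activator of the anaphase-promoting complex, stood at 258 and 118 FPKM in the knockout and 52.1 and 100 FPKM in the wildtype. The ranges did not overlap, although knockout library 2 was close to wildtype library 2. Its mean was 188 ± 98.8 FPKM in the knockout and 76.2 ± 34.1 FPKM in the wildtype (SD, n = 2 each). The log2 change was 1.26, with a 95% interval of 0.029 to 2.50, and missed the threshold after adjustment (SE 0.50, limma adjusted p = 0.153). Elovl1 overlaps Cdc20 on the opposite strand and was at 2.94 and 1.59 FPKM in the knockout and 1.70 and 0.836 FPKM in the wildtype, far below Cdc20. Plk1 and Cdc25c also have annotated genes on the opposite strand, Gm44985 and Gm3550, which were not analysed here.

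Pttg1, on chromosome 11, the securin that holds separase inactive, was the most abundant of the 10 in every library. It stood at 650 and 791 FPKM in the knockout and 400 and 343 FPKM in the wildtype. By rank among all symbols it was 184th and 175th in the knockout libraries and 290th and 283rd in the wildtype libraries. The libraries of a genotype lay close together and the groups were well apart, with means of 721 ± 99.8 FPKM in the knockout and 371 ± 40.4 FPKM in the wildtype (SD, n = 2 each). The log2 change was 0.95 (SE 0.27, 95% interval 0.28 to 1.62), and at a limma adjusted p of 0.0723 it was the nearest of the 10 to the threshold. Of the 3 genes tested that lay nearest to Pttg1 in log2(FPKM + 1) over the 4 libraries, Znhit1 was at a Euclidean distance of 0.163, 1110004E09Rik at 0.243 and 1810043H04Rik at 0.297, where the median distance of all genes from Pttg1 was 12.5. Of these 1110004E09Rik rose (699.6 and 805 FPKM in the knockout against 349 and 322 FPKM in the wildtype, limma adjusted p = 0.0348). The distance reflects level as well as change. Genes picked for values near those of Pttg1 differ between genotypes much as it does by that choice alone.

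The knockout libraries differed from each other in these genes. In knockout library 2, 9 of the 10 members were lower than in knockout library 1, with Pttg1 as the exception, while 60.7% of all genes tested were lower there. The ratio of knockout library 1 to library 2 was 1.58 for Cdc25c and 2.95 for Plk1, the ends of the range among the 9. In wildtype library 2, 5 of 10 members were higher than in wildtype library 1, near the 58.8% of all genes tested, led by Plk1 at 1.94 times and Cdc20 at 1.92 times. Each genotype thus had 1 library in which Plk1 and Cdc20 stood high together.

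The changes depended on the knockout library used. With knockout library 1 alone set against the wildtype, they were 1.82 for Cdc20, 1.07 for Plk1, 1.06 for Ccna1 and 0.96 for Aurka. With knockout library 2 alone, the same genes were at 0.70, -0.47, 0.24 and -0.10. Pttg1 was at 0.81 with knockout library 1 alone and 1.09 with knockout library 2 alone, and Ccnb2 at -0.074 and -0.96. In these fits the lone knockout library is assumed to vary like the wildtype pair. The knockout libraries differed more than that. Over all genes tested, the SD of the log2 difference was 0.85 between knockout libraries and 0.49 between wildtype libraries. Calls from these fits are therefore not used here. Leaving out either wildtype library gave 0 members in each direction. In those fits few or no genes of any kind passed, with 386 lower and 0 higher without wildtype library 1 and 0 in either direction without wildtype library 2, so the count of 0 says nothing about the members.

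**Figure D2:**
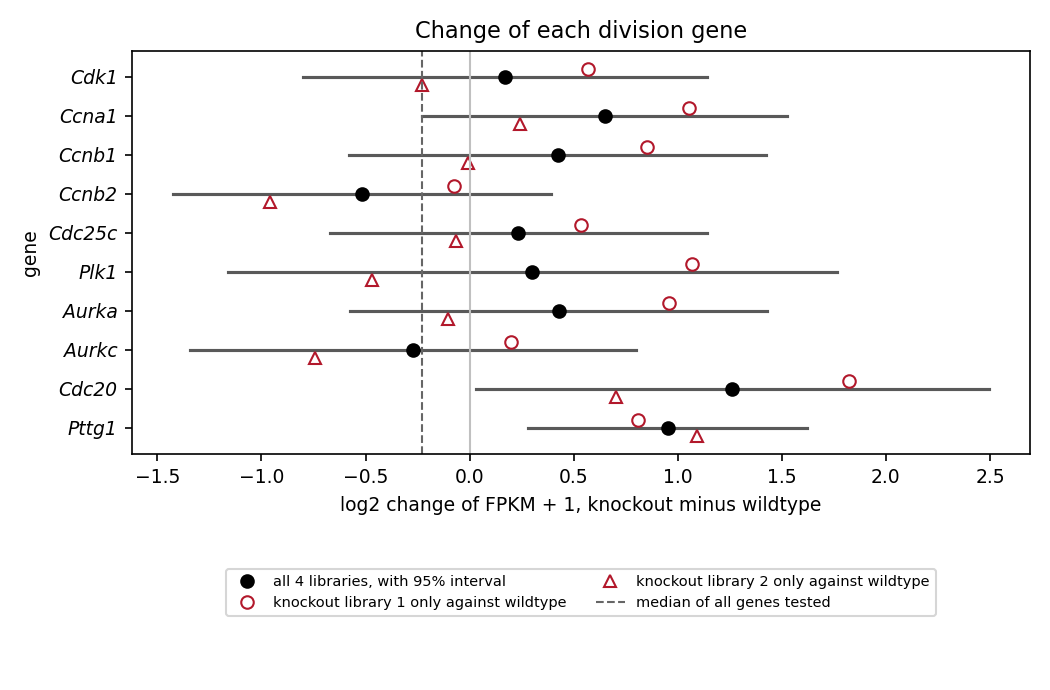
Log2 change of FPKM + 1, knockout minus wildtype, for each division gene. Black points with lines are the fit to all 4 libraries with its 95% interval, open red circles and triangles the change with knockout library 1 or 2 alone, and the dashed line the median of all genes tested at -0.23; Cdc20 and Pttg1 have intervals above 0, and every circle except that of Pttg1 lies to the right of its triangle.

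A ratio of 2 members within a library does not depend on how libraries were scaled. Of the 45 pairs of members, 27 (60.0%) had both knockout ratios on one side of both wildtype ratios, where 58.7% of all pairs among 6419 genes with at least 1 FPKM in each library did, so the count is near the background. The pairs were not spread evenly over the members. Ccnb2 was the lower partner in the knockout in 8 of its 9 pairs, Aurkc in 7 of 9, and Cdc20 was the higher partner in 8 of 9. Ccnb2 and Aurkc also had the lowest log2 changes of the members and Cdc20 the highest. The counts thus partly restate the order of the changes, and no such count per gene was made for all genes. Plk1 stood apart in 1 pair. Cdc20 over Ccnb2 was 0.774 and 0.658 in the knockout libraries against 0.137 and 0.309 in the wildtype libraries. Ccna1 over Ccnb2 was 1.11 and 1.17 in the knockout against 0.430 and 0.591 in the wildtype, so cyclin A1 transcript exceeded that of cyclin B2 in both knockout libraries and was below it in both wildtype libraries. Cdk1 over Ccnb2 was nearly constant within a genotype, at 0.0600 and 0.0616 in the knockout and 0.0374 and 0.0376 in the wildtype. Cdc20 over Plk1 was 2.28 and 3.09 in the knockout and 1.36 and 1.35 in the wildtype, although both genes varied widely between wildtype libraries. These pairs were picked after their values were seen, and pairs that share a gene are not independent.

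**Figure D3:**
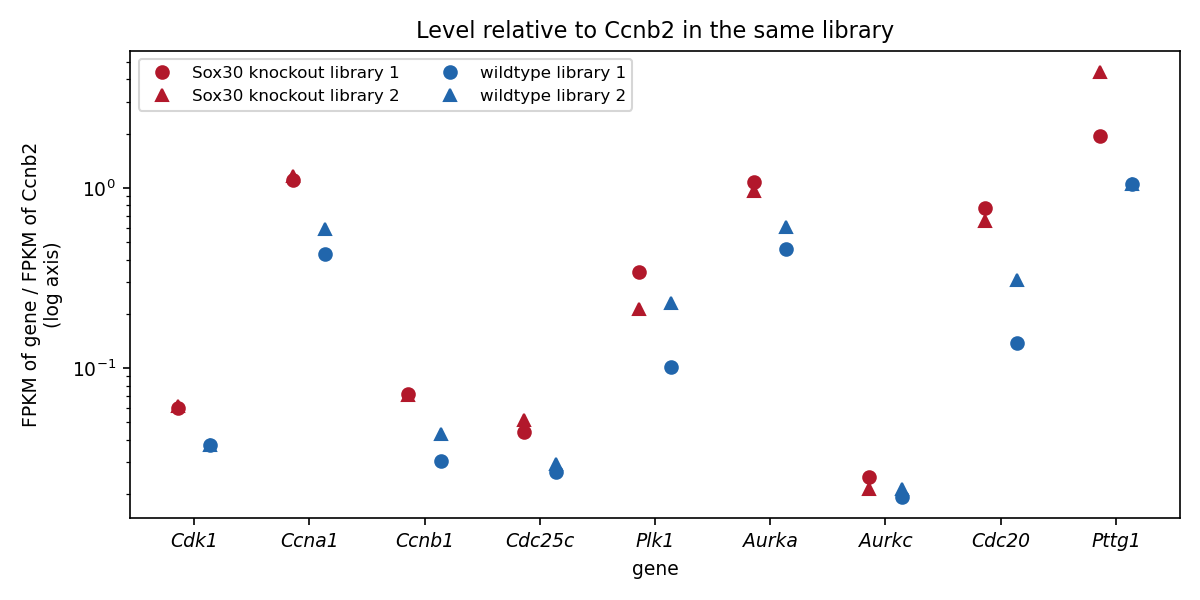
FPKM of each member divided by the FPKM of Ccnb2 in the same library, on a log axis, with knockout libraries in red at the left and wildtype libraries in blue at the right (circles library 1, triangles library 2). The red points lie above the blue ones for every gene except Plk1, where they overlap; for Aurkc the gap is small.

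The stretches before the start sites of members at the ends of the range are shown, since genes of the division machinery are known to share short promoter elements. These are the 250 bases upstream of the RefSeq start, build GRCm38.p6, which is not the mm9 build of the deposited values. Capitals mark the cell cycle homology region element (CHR, searched as TTTGAA or TTTAAA), the CCAAT box and the SOX core (searched as ACAAT), each on both strands. Cdc20, chr4:118437344-118437593 on the minus strand, Ccna1, chr3:55055056-55055305 on the minus strand, and Pttg1, chr11:43425982-43426231 on the minus strand, were the members whose knockout values lay above the wildtype ones. Ccnb2, chr9:70421555-70421804 on the minus strand, had the most negative change.
Cdc20: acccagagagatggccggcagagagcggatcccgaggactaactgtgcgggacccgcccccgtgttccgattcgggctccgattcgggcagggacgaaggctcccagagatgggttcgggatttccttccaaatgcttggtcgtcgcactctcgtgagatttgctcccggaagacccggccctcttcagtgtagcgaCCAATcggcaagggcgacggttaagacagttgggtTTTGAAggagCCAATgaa
Ccna1: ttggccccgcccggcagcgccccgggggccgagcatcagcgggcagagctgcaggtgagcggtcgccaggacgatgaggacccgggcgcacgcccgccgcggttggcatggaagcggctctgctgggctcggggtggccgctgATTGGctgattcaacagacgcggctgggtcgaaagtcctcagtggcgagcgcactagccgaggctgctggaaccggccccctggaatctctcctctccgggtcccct
Pttg1: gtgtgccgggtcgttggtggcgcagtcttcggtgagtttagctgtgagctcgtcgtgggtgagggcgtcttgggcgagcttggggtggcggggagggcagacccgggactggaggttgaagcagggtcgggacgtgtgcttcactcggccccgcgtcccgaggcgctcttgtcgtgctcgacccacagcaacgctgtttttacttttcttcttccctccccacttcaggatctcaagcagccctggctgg
Ccnb2: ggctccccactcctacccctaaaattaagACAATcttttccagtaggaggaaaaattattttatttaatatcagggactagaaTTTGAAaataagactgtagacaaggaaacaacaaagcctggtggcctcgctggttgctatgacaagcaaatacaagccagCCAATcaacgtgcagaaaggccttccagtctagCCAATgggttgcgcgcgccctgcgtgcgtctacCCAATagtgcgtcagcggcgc

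A window was found for 9 of the 10 members, all but Cdc25c. A CHR match was present in 5 of the 9 (Cdk1, Ccnb1, Ccnb2, Plk1 and Cdc20), where 25.2% of the 32851 RefSeq windows of this length held one. A CCAAT match was present in 7 of the 9, where 33.8% of windows held one. Ccnb2 had 3 CCAAT matches, ending 83, 50 and 17 bases before the start, and Cdc20 had 2 with a TTTGAA between them. The only SOX core match among the 9 was in Ccnb2, where 27.7% of windows held one. No 2 different motifs overlapped in these windows. Pttg1 and Aurkc held none of the 3 motifs, and Ccna1 held a single CCAAT on the reverse strand, printed as ATTGG. The 3 members with knockout values above the wildtype range thus had different motif contents, and a match of letters is not a binding site.

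Other genes of the division pathway were described from 6 lists chosen by role, 95 genes of which 79 were tested. Of these 1 fell, 0 rose and 78 did not pass, where 13.4% of all genes tested fell and 1.95% rose. The untested genes missed the filter on low values. With no filter 3 of them were called lower, Ccnb3, Fbxo5 and Mastl, each under 1 FPKM in every library. At an unadjusted limma p under 0.05 there were 16 of the 79, a smaller share than the 31.3% of all genes. Both knockout values lay above the wildtype values for 21.5% of the 79 and below for 30.4%, against 22.2% and 38.6% of all genes. Their median log2 change was -0.26, against -0.23 for all genes.

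Among cyclins, cyclin-dependent kinases and their regulators, 0 of 17 tested genes passed, and the median was 0.21. Ccnd3, a D-type cyclin, was at 39.1 and 18.3 FPKM in the knockout and 34.0 and 57.5 FPKM in the wildtype (limma adjusted p = 0.358). Cdkn2d, an inhibitor of cyclin D kinases, was at 57.8 and 30.4 FPKM in the knockout and 26.8 and 29.1 FPKM in the wildtype (limma adjusted p = 0.368). Pkmyt1 and Wee1, kinases that hold Cdk1 inactive and were picked after their values were seen, both lay above the wildtype range. Pkmyt1 was at 26.4 and 25.1 FPKM in the knockout and 10.7 and 14.4 FPKM in the wildtype (limma adjusted p = 0.102). Wee1 was at 10.8 and 7.76 FPKM in the knockout and 2.91 and 5.64 FPKM in the wildtype (limma adjusted p = 0.174). As many genes of the list lay below the wildtype range as above it, 4 each. Those below were Ccna2, Ccne2 and the small Cdk-binding subunits Cks1b and Cks2. Cks1b had the largest change of the list, at 6.32 FPKM in knockout library 1 and listed at 0 in knockout library 2, against 20.7 and 13.2 FPKM in the wildtype (limma adjusted p = 0.112).

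Of the anaphase-promoting complex, with its partners and inhibitors, 0 of 14 tested genes passed, and the median was 0.04. Anapc13, a small subunit of the complex, was at 637 and 1172 FPKM in the knockout and 461 and 328 FPKM in the wildtype (limma adjusted p = 0.108). Ube2s, which extends ubiquitin chains on its targets, was at 383 and 510 FPKM in the knockout and 295 and 289 FPKM in the wildtype (limma adjusted p = 0.208). Both lay above the wildtype range. In the whole list 4 of the 14 lay above it and 3 below, 28.6% and 21.4%, against 22.2% and 38.6% of all genes. The 3 below, named after their values were seen, were the complex subunits Cdc16 (log2 change -1.53, limma adjusted p = 0.0559), Cdc27 (-1.33, adjusted p = 0.138) and Anapc5 (-0.83, adjusted p = 0.286).

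In the list of spindle checkpoint genes, separase and shugoshins, 1 of 9 tested genes fell and 0 rose, with a median of 0.09. The gene that fell was Bub1, a checkpoint kinase, at 9.39 and 11.4 FPKM in the knockout and 27.1 and 25.5 FPKM in the wildtype, with a change of -1.26 (limma adjusted p = 0.0498, SE 0.32). The call stood at the threshold and ended under 11 of the 16 other settings. Mad2l2, an adaptor related to the checkpoint protein Mad2, was at 917 and 806 FPKM in the knockout and 623 and 480 FPKM in the wildtype (limma adjusted p = 0.175). Separase itself, Espl1, the target of Pttg1, was at 3.67 and 3.32 FPKM in the knockout and 1.99 and 2.87 FPKM in the wildtype and was picked after its values were seen (limma adjusted p = 0.481).

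The Aurora and Polo partners and relatives had 0 of 8 tested genes past the threshold and a median of 0.17. For 4 of the 8 both knockout values lay above both wildtype values, and for 1 both lay below. Those are 50.0% and 12.5%, against 22.2% and 38.6% of all genes tested. Birc5, the survivin subunit that carries Aurora kinases to centromeres, was at 299 and 298 FPKM in the knockout and 179 and 149 FPKM in the wildtype (limma adjusted p = 0.0893). Cdca8, the borealin subunit of the same complex, was at 55.2 and 37.1 FPKM in the knockout and 35.0 and 35.5 FPKM in the wildtype (limma adjusted p = 0.500). The gene below the wildtype range, named after its values were seen, was the Polo relative Plk4. It was at 6.85 and 5.18 FPKM in the knockout and 13.3 and 17.0 FPKM in the wildtype (limma adjusted p = 0.0782). Of the other kinases and chaperones of entry into division 0 of 6 passed, with a median of -0.21. Hspa2, a chaperone of Cdk1 in mouse spermatocytes, was at 140 and 74.1 FPKM in the knockout and 89.6 and 181 FPKM in the wildtype (limma adjusted p = 0.680), and Gsg2, the haspin kinase, was at 135 and 71.6 FPKM in the knockout and 102 and 171 FPKM in the wildtype (limma adjusted p = 0.544).

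The spindle, kinetochore, condensin and cytokinesis list lay lower. Of 25 tested genes 0 passed, the median was -0.61, 21 had negative changes, and 13 had both knockout values below both wildtype values, 52.0% against 38.6% of all genes. Smc4, a condensin subunit, was at 18.8 and 33.7 FPKM in the knockout and 51.3 and 49.8 FPKM in the wildtype (limma adjusted p = 0.141). Spc25, a kinetochore protein, went the other way, at 88.6 and 101 FPKM in the knockout and 57.1 and 46.8 FPKM in the wildtype (limma adjusted p = 0.108). The spermatocyte markers had a median of -0.87 over 11 tested genes, also below that of all genes.

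**Figure D4:**
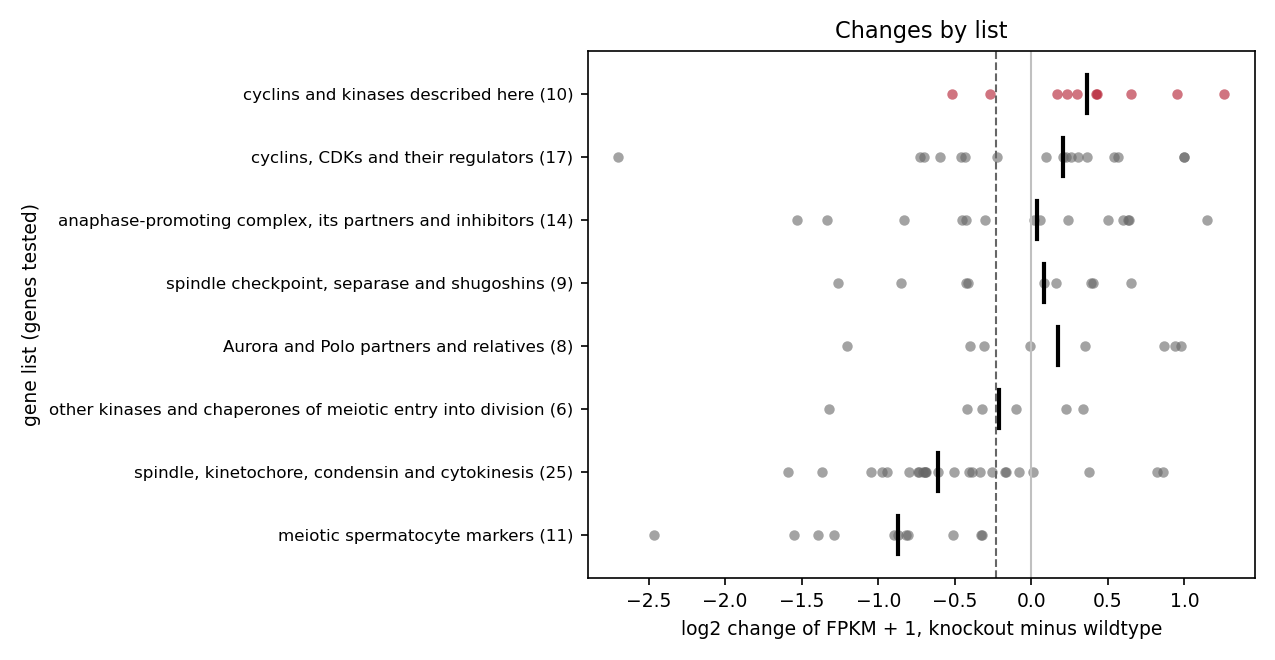
Log2 change of FPKM + 1, knockout minus wildtype, of each tested gene in the 10 genes described here (red), the 6 other division lists and the spermatocyte markers (grey), with the number tested in parentheses. Thick bars are list medians and the dashed line is the median of all genes tested at -0.23; the 10 genes have a median of 0.36, and the spindle list and the spermatocyte markers lie to the left of the dashed line by median.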

How the data were processed

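RNA sequencing libraries from sorted haploid testis cells, 2 Sox30 knockout and 2 wildtype, were compared; groups and library numbers come from the sample titles. Each library has its own table, deposited by the authors in FPKM, per the file headers. Build mm9, Cuffdiff, Cufflinks 2.0.2 and TopHat2 2.0.6 are listed in the submitters' processing notes, with no settings. A NEBNext Ultra RNA kit was used, per the labels.

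Each table had 23021 entries for 22552 symbols, and 259 symbols on more than 1 entry were summed. Genes with a mean of at least 1 FPKM (9124) were transformed as log2(FPKM + 1), which understates changes of low genes, and fitted with genotype alone in limma 3.58.1 (R 4.3.3) with empirical Bayes and a mean-variance trend (residual df 2, prior df 3.84). The p-values are two-sided and were adjusted by Benjamini-Hochberg over all genes tested, with a threshold of 0.05. The fit was tested on simulated data. Read counts were not used here, so no counting intervals are given.

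The members and lists were chosen with earlier results of these data known. The text names all members, up to 4 called genes per list topped up to 2 by mean FPKM, Sox30, and the 3 nearest genes to the most abundant member; others are marked. Copies were sought with blastn 2.17.0 and chromosomes taken from GENCODE M21. GC content was found for 98.6% of genes tested. Protein sequences were not used here. Relative depth was read from steps between FPKM under 1 (tolerance 0.01, log2).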

Additional observations from a re-analysis of the deposited data

How the results depend on the processing

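Of 160 re-estimates of the 10 members under 16 other settings, 140 kept their direction and their side of the threshold, 11 newly passed and 9 changed sign. Some of the 11 came from the fits with a single knockout library, whose calls are not used here. Members above the median of all genes numbered 7 to 9 under every setting, against 8 in the reported fit. The median change of the members, 0.36 as reported, depended on the knockout library. It was 0.83 with knockout library 1 alone and -0.085 with knockout library 2 alone, and 9 and 3 members were above 0, against 8 as reported. The median of all genes was -0.23 as reported, -0.03 with median-ratio scaling and 0.24 with quantile normalization. With quantile normalization 2 members passed, both higher, Cdc20 (1.35, limma adjusted p = 0.0487) and Pttg1 (0.69, adjusted p = 0.0359), Aurkc turned to 0.26, 961 genes rose, and 0 list genes fell and 7 rose. After the GC correction 1 member passed, Pttg1 (1.18, limma adjusted p = 0.0310). The change of Cdc20 shrank from 1.26 to 0.85 (limma adjusted p = 0.265), and Plk1 turned to -0.14. Plk1 and Cdc20 had the highest GC content of the members, 56% and 55.6% of the longest transcript. In that fit 0 list genes fell and 2 rose, among 1126 genes lower and 151 higher in all.

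Leaving out 1 library at a time, members lower ranged from 0 to 1 and members higher from 0 to 4; list genes lower from 0 to 19 and higher from 0 to 8; all genes lower from 0 to 3071 and higher from 0 to 984. The 0 calls without wildtype library 2 stood beside 1412 genes at an unadjusted limma p under 0.05. Changes ranged from -0.23 to 0.57 for Cdk1, 0.24 to 1.06 for Ccna1, -0.0063 to 0.85 for Ccnb1 and -0.96 to -0.074 for Ccnb2. They ranged from 0.70 to 1.82 for Cdc20, 0.81 to 1.09 for Pttg1, -0.067 to 0.54 for Cdc25c and -0.47 to 1.07 for Plk1. For Aurka and Aurkc the ranges were -0.10 to 0.96 and -0.74 to 0.20. Sox30 had a change of -2.43 without wildtype library 1 (limma adjusted p = 0.295), -1.95 without wildtype library 2 (0.357) and -2.19 with no filter (0.0660), none past the threshold.

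Genes higher in the knockout, 178 as reported, numbered 113 with a pseudocount of 0.1, 62 with no filter, 276 with median-ratio scaling and 82 with the library number as a replicate block; 787 fell with a mean of at least 5 FPKM. List genes lower, 1 as reported, numbered 0 with a pseudocount of 0.1, median-ratio scaling or robust empirical Bayes, 2 with a pseudocount of 5 and 3 with no filter. The deviations of same-numbered libraries from their genotype means had a weak negative correlation (r = -0.20 across genes). With a single contrast per genotype this cannot settle whether the numbers pair libraries. Under the block 0 members passed. A crossed pairing, chosen after seeing the data, called 2 members higher, 4 list genes lower and 1 higher, and 390 genes higher in all. The cause of these shifts was not tested.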
